A study of Mus musculus with 12 samples.

Results

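The epicardial and mesothelial markers examined here are 10 genes, Upk3b, Upk1b, Msln, Lrrn4, Krt19, Krt8, Krt18, Wt1, Tbx18 and Aldh1a2, taken by symbol from 47729 annotated mouse genes. All 10 were found, and all 10 were among the 15336 genes with enough reads to be tested. They were read in RNA of mouse heart from 12 libraries in 4 groups of 3. The groups were hearts infused with angiotensin II (Ang II) and given EHP-101, hearts infused with Ang II and given losartan, hearts infused with Ang II and given vehicle, and saline control hearts. All animals were male C57BL/6 mice of 8 weeks, and the infusion ran for 28 days from an osmotic pump under the skin. In the last 2 weeks EHP-101 was given by mouth at 20 mg/kg and losartan in the drinking water at 0.6 g/L. Ang II is a vasoconstrictor peptide whose infusion leads to hypertension and fibrosis of the heart, losartan blocks its AT1 receptor, and EHP-101 is an oral cannabidiol derivative that acts on PPARγ and CB2. Ang II control also stands in the titles of the control libraries, which are read here as the saline-infused animals.

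The epicardium is the sheet of mesothelium that covers the outside of the heart. Its cells share an apical membrane and keratin programme with the mesothelium of pleura and peritoneum, and in the embryo they shed cells that become fibroblasts and mural cells of the coronary vessels. Wt1 and Tbx18 are transcription factors of this lineage, and Aldh1a2 makes the retinoic acid that the embryonic epicardium secretes. Wt1 is also found in some endothelial cells and Tbx18 in mural cells of the adult mouse heart, so that neither marks the epicardium alone. In a whole piece of heart, fewer cells of a type and less RNA per cell cannot be told apart.

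Promoters of 6 of the 10 genes were in the RefSeq table used here (GRCm38.p6): Upk3b, Lrrn4, Krt8, Krt18, Aldh1a2 and Tbx18. Those of Upk3b and Lrrn4, which varied together between libraries, and of Aldh1a2 and Tbx18, which followed them less closely, are shown for the 250 bases before the start. Capitals mark matches to GGAATG, the core bound by TEAD factors, in the first pair of sequences and to GCGNGGGNG, a motif like that of WT1 and EGR factors, in the second pair, on either strand.
Upk3b (chr5:136038246-136038495, plus strand): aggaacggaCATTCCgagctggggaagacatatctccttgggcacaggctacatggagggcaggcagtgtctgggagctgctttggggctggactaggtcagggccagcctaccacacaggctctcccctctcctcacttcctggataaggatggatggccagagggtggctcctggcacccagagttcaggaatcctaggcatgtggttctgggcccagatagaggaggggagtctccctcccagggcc
Lrrn4 (chr2:132880863-132881112, minus strand): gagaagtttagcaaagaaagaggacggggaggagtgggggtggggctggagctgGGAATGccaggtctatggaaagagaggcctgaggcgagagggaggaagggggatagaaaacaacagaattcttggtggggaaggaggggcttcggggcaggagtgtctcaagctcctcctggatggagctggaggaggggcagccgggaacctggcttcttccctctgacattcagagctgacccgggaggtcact
Aldh1a2 (chr9:71215539-71215788, plus strand): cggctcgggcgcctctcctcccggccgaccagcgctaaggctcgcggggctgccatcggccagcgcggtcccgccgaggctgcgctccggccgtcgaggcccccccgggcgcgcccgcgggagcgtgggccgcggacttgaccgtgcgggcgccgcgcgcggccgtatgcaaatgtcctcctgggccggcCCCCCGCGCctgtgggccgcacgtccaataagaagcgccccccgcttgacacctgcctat
Tbx18 (chr9:87731261-87731510, minus strand): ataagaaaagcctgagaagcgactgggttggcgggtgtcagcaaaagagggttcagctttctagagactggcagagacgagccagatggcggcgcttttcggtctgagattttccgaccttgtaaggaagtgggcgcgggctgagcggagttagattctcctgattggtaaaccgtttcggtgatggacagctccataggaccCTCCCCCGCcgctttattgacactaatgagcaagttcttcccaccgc
The match in Upk3b begins at position -241 from the start and reads on the other strand, and the one in Lrrn4 begins at -196. Those in Aldh1a2 and Tbx18 begin at -60 and -47. In windows from 250 bases before to 50 bases after the start, GGAATG occurred in 14.6% and GCGNGGGNG in 12.1% of 27025 genes. The GATA core AGATAA (11.4% of genes) and the TATA box TATAAA (14.2%) had no match in these 4 windows, and the E-box CANNTG (72.1%) had a match in 3 of them and none in that of Lrrn4. The Aldh1a2 window had 78% G and C and 50 CpG sites, against medians of 52.7% and 7 over the 27025 genes. Upk3b had 58.7% and 2, Lrrn4 58% and 7, and Tbx18 51.7% and 15.

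Total counts were 22155418 to 24040516 per library. Levels are in CPM, the usual scaling of counts to the library size, here TMM-adjusted, with the SD among 3 libraries. Control replicate 2 stood apart, at 84.37 on the first principal component of all tested genes (35.27% of the variance), against -32.41 to 12.72 in the other 11 libraries. The labels do not say whether the libraries of a group came from separate animals, and the p-values therefore rest on library-to-library spread alone, part or all of which could be technical. Markers of lung and bladder epithelium, which shares uroplakins and keratins with mesothelium, had few reads, with summed levels of 1.45 to 2.20 CPM under EHP-101, 0.744 to 1.42 under losartan, 1.79 to 2.1 with Ang II alone and 1.18 to 1.84 in controls. Of 13 such genes 2 had enough reads to be tested, the bladder uroplakin Upk1a with 7 to 21 reads per library (167 in all, against 143 of Krt8) and the airway secretory gene Scgb1a1 with 0 to 21 (108 in all). Neither passed in any comparison. Epcam had 0 to 2 reads and the surfactant gene Sftpc 0 to 3 per library, and the bladder uroplakin Upk3a and the lung claudin Cldn18 had 0 in all 12, where 3 reads are the upper limit that a count of 0 allows.

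Per kilobase of exon, Aldh1a2 had the highest mean level of the 10 genes and Krt8 the lowest. Mean RPKM values (reads per kilobase of exon, scaled as CPM) over the 12 libraries were 3.69 for Aldh1a2, 2.14 for Upk3b, 1.5 for Tbx18 and 1.49 for Msln. They were 1.26 for Krt18, 0.978 for Wt1, 0.750 for Upk1b, 0.684 for Lrrn4, 0.650 for Krt19 and 0.255 for Krt8. In the Ang II group Upk3b had 3.43 ± 0.658 RPKM and Msln 2.20 ± 0.453, against 0.908 ± 0.0737 for Wt1 (SD, n = 3).

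Upk3b, which encodes a membrane protein of the apical surface of mesothelium and urothelium (ENSMUSG00000042985, chr5:136038496-136046487, plus strand, GRCm38), had between 6 and 434 reads per library. These were 65, 16 and 244 reads in EHP-101 replicates 1, 2 and 3, 19, 434 and 39 under losartan, 388, 270 and 276 with Ang II alone, and 145, 6 and 312 in the control group. In CPM these were 2.75, 0.748 and 10.7 under EHP-101, 0.883, 18.1 and 1.64 under losartan, 14.7, 11.2 and 10.3 with Ang II alone, and 6.05, 0.323 and 13.0 in controls. The highest library of all was losartan replicate 2 and the lowest was control replicate 2. EHP-101 replicate 3, losartan replicate 2 and control replicate 3 reached or passed the lowest of the Ang II libraries, and the other libraries of those groups lay below it. The highest library was 14.3 times the lowest under EHP-101, 20.6 times under losartan, 1.42 times with Ang II alone and 40.3 times in controls. Group means were 4.73 ± 5.25 CPM under EHP-101, 6.89 ± 9.76 under losartan, 12.1 ± 2.32 with Ang II alone and 6.46 ± 6.36 in controls. No neighbouring means in the order Ang II, losartan, control and EHP-101 differed beyond these SDs.

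**Figure D1:**
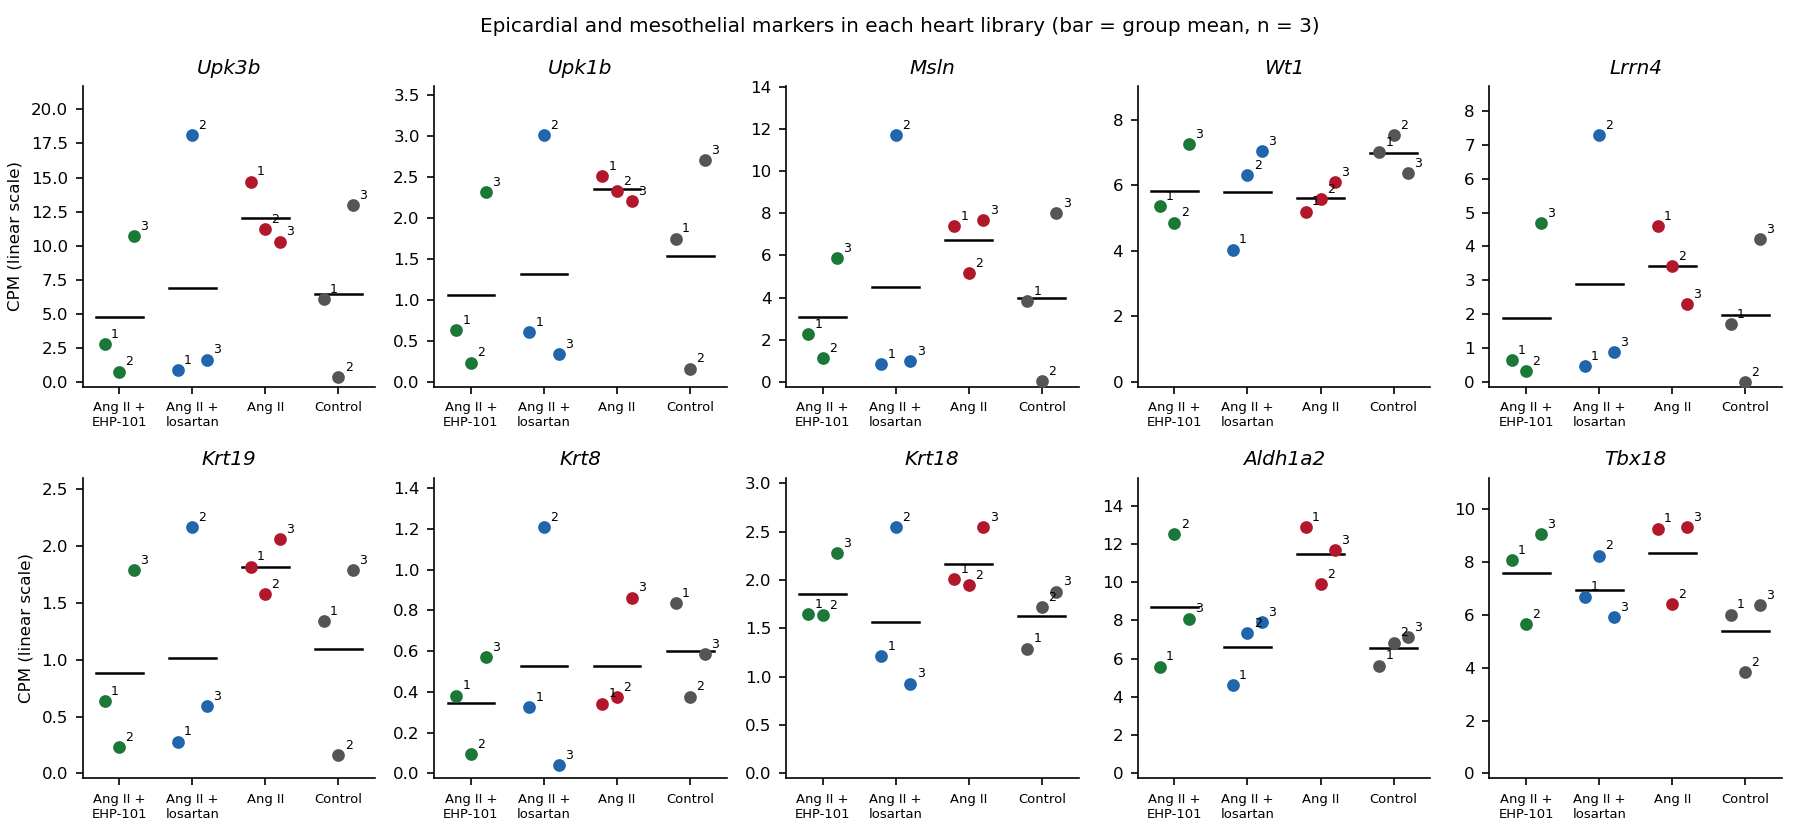
CPM of each of the 10 genes (linear vertical axes, one range per gene) in the 12 libraries, with the replicate number beside each point and the group mean (n = 3) as a bar. In the panels of Upk3b, Upk1b, Msln, Lrrn4 and Krt19 the same libraries are high or low, from 0.323 to 18.1 CPM for Upk3b, while Wt1 stays between 4.04 and 7.53 CPM.

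The other surface proteins were high and low in the same libraries. Upk1b, a uroplakin of the tetraspanin family (ENSMUSG00000049436, chr16:38773184-38800328, minus strand), had 0.634, 0.234 and 2.32 CPM under EHP-101, 0.604, 3.01 and 0.337 under losartan, 2.51, 2.33 and 2.21 with Ang II alone, and 1.75, 0.161 and 2.71 in controls. Msln, the lipid-anchored surface glycoprotein mesothelin (ENSMUSG00000063011, chr17:25748613-25754378, minus strand), had 2.28, 1.12 and 5.87 CPM under EHP-101, 0.837, 11.7 and 0.970 under losartan, 7.40, 5.15 and 7.68 with Ang II alone, and 3.84, 0.0538 and 8.01 in controls. In both genes EHP-101 replicate 3, losartan replicate 2 and control replicate 3 led their groups, and the ranges of all 4 groups overlapped. Lrrn4, a membrane protein with leucine-rich repeats (ENSMUSG00000043110, chr2:132868305-132880891, minus strand), had 0.634, 0.327 and 4.68 CPM under EHP-101, 0.465, 7.28 and 0.885 under losartan, 4.59, 3.41 and 2.29 with Ang II alone, and 1.71, 0 and 4.21 in controls. Control replicate 2 held 0 reads of Lrrn4, 1 of Msln and 3 of Upk1b, at or under the floor of 3 reads, which is 0.161 CPM in that library.

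Of the 3 keratins, which form intermediate filaments of simple epithelia, Krt19 followed the surface proteins. It is a type I keratin (ENSMUSG00000020911, chr11:100140810-100148665, minus strand) and had 0.634, 0.234 and 1.79 CPM under EHP-101, 0.279, 2.17 and 0.590 under losartan, 1.82, 1.58 and 2.06 with Ang II alone, and 1.34, 0.161 and 1.79 in controls. Krt18, another type I keratin (ENSMUSG00000023043, chr15:102028180-102032027, plus strand), had 1.65, 1.64 and 2.28 CPM under EHP-101, 1.21, 2.55 and 0.928 under losartan, 2.01, 1.95 and 2.55 with Ang II alone, and 1.29, 1.72 and 1.88 in controls. Over all 12 libraries Krt18 spanned 2.75-fold, and its Ang II libraries lay just above all control libraries. Krt8, the type II partner of Krt18 (ENSMUSG00000049382, chr15:101996698-102004482, minus strand), had few reads, with 9, 2 and 13 under EHP-101, 7, 29 and 1 under losartan, 9, 9 and 23 with Ang II alone, and 20, 7 and 14 in controls. Without control replicate 2, there were between 0.0455 and 0.645 reads of Krt8 per read of Krt18, with a median of 0.25. Krt8 shares exon bases with Gm36026, a noncoding RNA on the other strand, and 1 annotated pseudogene is named after it. Its level is uncertain for these reasons, and pseudogenes under other names were not counted for any marker.

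The transcription factors and the enzyme spanned a narrower range of levels than the surface proteins. Wt1, a zinc finger factor (ENSMUSG00000016458, chr2:105126529-105173616, plus strand), had 5.37, 4.86 and 7.27 CPM under EHP-101, 4.04, 6.31 and 7.04 under losartan, 5.20, 5.57 and 6.11 with Ang II alone, and 7.02, 7.53 and 6.38 in controls. Its highest library was control replicate 2, the one with the fewest reads of Upk3b, and the 12 libraries spanned 1.86-fold. Tbx18, a T-box factor (ENSMUSG00000032419, chr9:87702800-87731260, minus strand), had 8.08, 5.66 and 9.06 CPM under EHP-101, 6.69, 8.24 and 5.90 under losartan, 9.26, 6.40 and 9.33 with Ang II alone, and 6.01, 3.82 and 6.38 in controls. All 3 Ang II libraries lay above the 3 control libraries, with Ang II replicate 2 at 6.40 CPM next to control replicate 3 at 6.38 CPM. Tbx18 shares 970 exon bases with an unprocessed transcript on the other strand, D030062O11Rik, and the library kit keeps no strand. Aldh1a2, a retinaldehyde dehydrogenase (ENSMUSG00000013584, chr9:71215789-71296243, plus strand), had 5.58, 12.5 and 8.10 CPM under EHP-101, 4.60, 7.32 and 7.93 under losartan, 12.9, 9.89 and 11.7 with Ang II alone, and 5.64, 6.84 and 7.13 in controls. The Ang II libraries lay above every control and losartan library, while EHP-101 replicate 2 reached the Ang II range.

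The spread between libraries of the same group was compared with that of all tested genes through edgeR's gene-wise biological coefficient of variation (BCV). It was 1.09 for Lrrn4, 1.01 for Upk3b and 0.985 for Msln, which were the 5th, 16th and 21st highest of the 15336 genes. Upk1b at 0.748, Krt19 at 0.664 and Krt8 at 0.615 ranked 68th, 96th and 136th. Genes within 0.5 log2 CPM of Upk3b had a median BCV of 0.165, and those around Krt19 one of 0.245. Krt18 at 0.261, Aldh1a2 at 0.232, Tbx18 at 0.206 and Wt1 at 0.181 had a lower spread, beside medians of genes at their level of 0.235, 0.162, 0.167 and 0.175. The BCV of Krt8 rests on 1 to 29 reads per library.

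**Figure D2:**
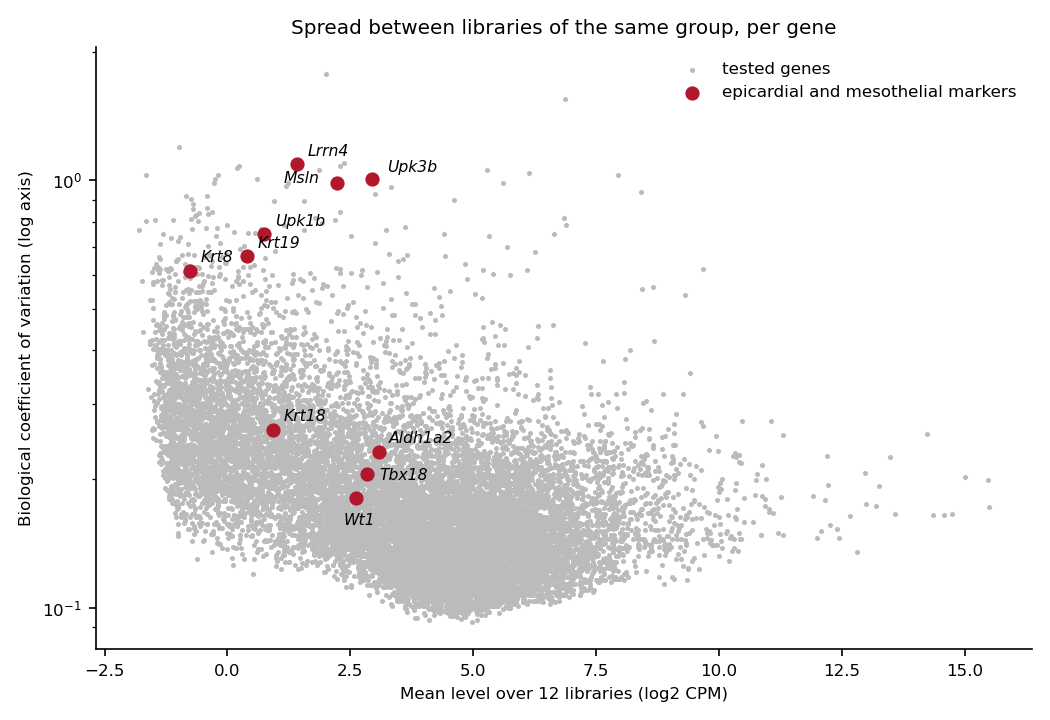
Gene-wise biological coefficient of variation between libraries of the same group (log axis) against the mean level over the 12 libraries (log2 CPM), with the 15336 tested genes in grey and the 10 markers in red. Lrrn4, Upk3b, Msln, Upk1b, Krt19 and Krt8 lie at 0.615 or higher, and Krt18, Aldh1a2, Tbx18 and Wt1 lie between 0.181 and 0.261.

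Upk3b, Upk1b, Msln, Lrrn4 and Krt19 were high and low together from library to library, also inside groups. Over the 12 libraries the log2 CPM of Krt19 had a Pearson correlation with Upk3b of 0.99 (permutation p = 1e-05, the smallest that 100000 permutations can give, adjusted 3.67e-05) and a Spearman rho of 0.91 (permutation p = 8e-05, adjusted 0.00022). Pearson's r was 0.97 for Lrrn4 (permutation p = 1e-05, adjusted 3.67e-05), 0.97 for Upk1b (permutation p = 5e-05, adjusted 0.000137) and 0.96 for Msln (permutation p = 1e-05, adjusted 3.67e-05). Their rho values were 0.95 (permutation p = 1e-05, adjusted 5.5e-05), 0.99 (permutation p = 1e-05, adjusted 5.5e-05) and 0.92 (permutation p = 8e-05, adjusted 0.00022). Without the 2 libraries farthest from the median of Upk3b, control replicate 2 and EHP-101 replicate 2, r was 0.98 for Krt19, 0.95 for Lrrn4, 0.94 for Upk1b and 0.98 for Msln. After each group mean was subtracted, r was 0.99, 0.98, 0.97 and 0.97 for these 4 genes, with exact permutation p-values within groups of 0.00309, 0.000772, 0.0054 and 0.00309 (adjusted 0.0113, 0.00849, 0.0149 and 0.0113). In all, 11 relations with Upk3b were computed, and p-values were adjusted over them by Benjamini-Hochberg. In the 11 libraries other than control replicate 2 there were 0.12 to 0.359 reads of Krt19, 0.221 to 0.538 of Lrrn4, 0.166 to 0.684 of Upk1b and 0.459 to 1.5 of Msln per read of Upk3b.

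The other 5 members had lower correlations with Upk3b. Tbx18 had an r of 0.73 (permutation p = 0.0058, adjusted 0.0106) and a rho of 0.64 (permutation p = 0.028, adjusted 0.044), and r was 0.45 without the 2 farthest libraries, so that the relation over all libraries rests in part on them. Within groups it was 0.82 (exact permutation p = 0.00926, adjusted 0.0204). Krt18 had an r of 0.61 (permutation p = 0.0367, adjusted 0.0505) and a rho of 0.71 (permutation p = 0.012, adjusted 0.0219), and Krt8 an r of 0.61 (permutation p = 0.0338, adjusted 0.0505) and a rho of 0.52 (permutation p = 0.0843, adjusted 0.116). Neither passed within groups, where the exact permutation p was 0.164 for Krt18 and 0.0656 for Krt8 (adjusted 0.226 and 0.103). Wt1 had an r of 0.16 and a rho of -0.01 (permutation p = 0.618 and 0.974, as also after adjustment), and Aldh1a2 an r of 0.29 and a rho of 0.33 (permutation p = 0.364 and 0.298, adjusted 0.4 and 0.364). Without the 2 farthest libraries r was 0.83 for Krt18, 0.63 for Krt8, 0.64 for Aldh1a2 and 0.41 for Wt1, and within groups it was -0.03 for Aldh1a2 and 0.32 for Wt1 (exact permutation p = 0.938 and 0.443, adjusted 0.938 and 0.487). Per read of Upk3b there were 0.348 to 6.5 reads of Wt1 and 0.403 to 16.8 of Aldh1a2 in the same 11 libraries.

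**Figure D3:**
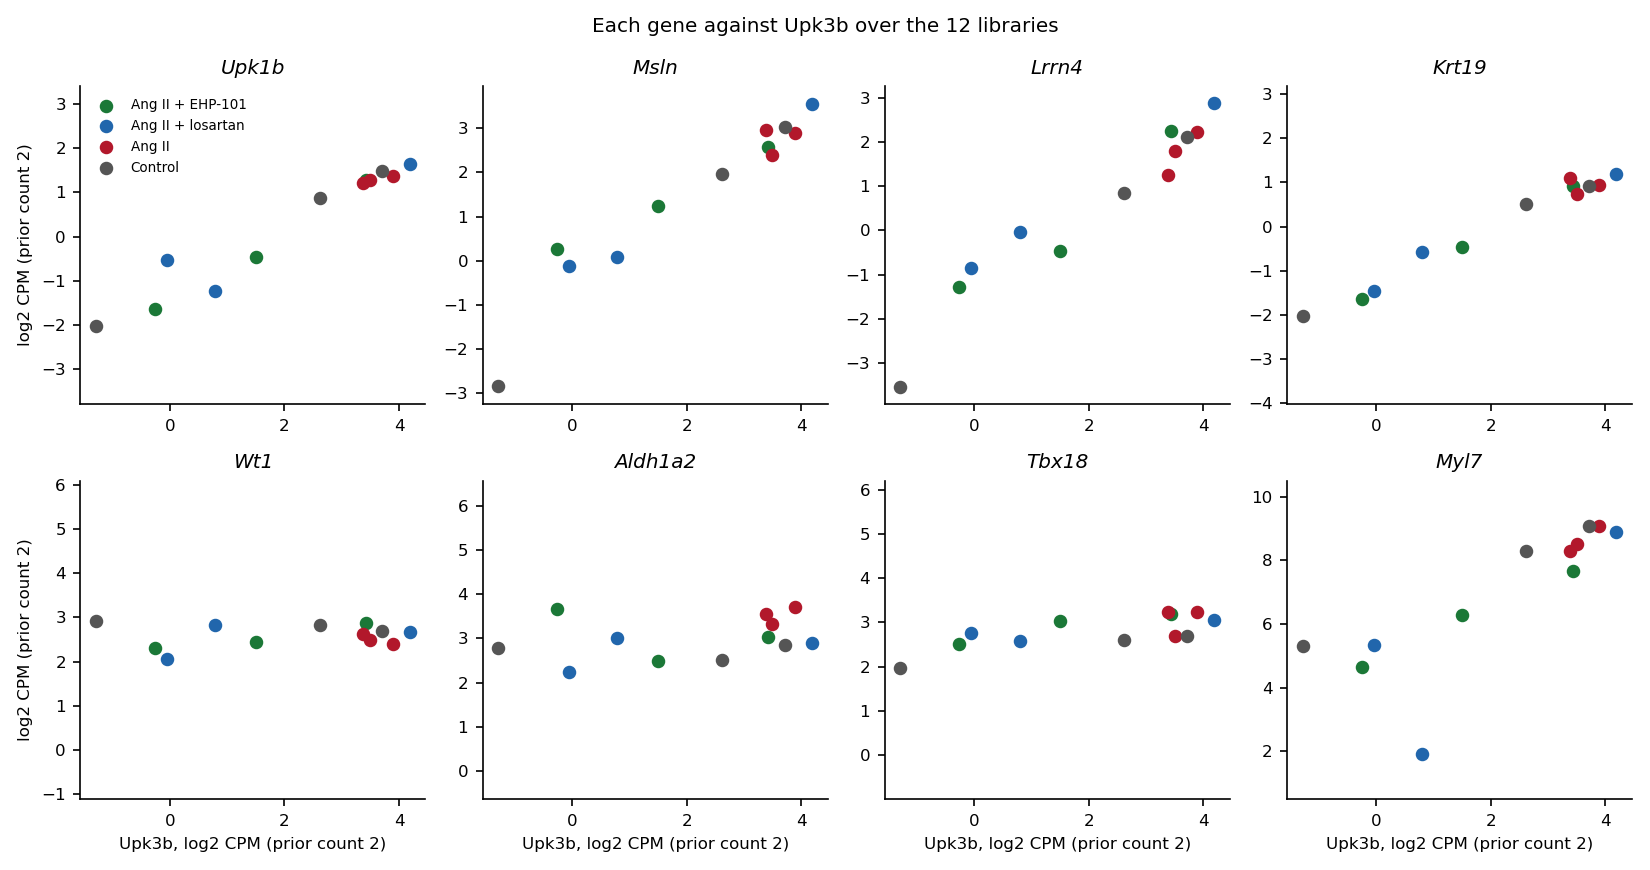
Log2 CPM (prior count 2) of 4 surface and keratin genes (top), of Wt1, Aldh1a2 and Tbx18, and of the atrial myosin light chain Myl7 (bottom) against that of Upk3b, 1 point per library, coloured by group. Upk1b, Msln, Lrrn4 and Krt19 climb with Upk3b (r = 0.97, 0.96, 0.97 and 0.99), Wt1 and Aldh1a2 have the lowest r of the genes plotted (0.16 and 0.29), and Myl7 climbs with more scatter (r = 0.82).

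Other genes known from mesothelium showed the pattern as well. The 5 libraries lowest in Upk3b were control replicate 2, EHP-101 replicates 1 and 2 and losartan replicates 1 and 3, and the same 5 were the lowest in 5 of the 10 members, Upk3b itself included, and in 6 of 17 other mesothelial genes. The share over all tested genes was 1.04%, or 160 genes. Those 6 genes, named after their values were seen, were Muc16, Rspo1, Nkain4, Dmkn, Chst4 and Efemp1. Muc16, the mesothelial mucin known as CA125, had 0.761, 0.374 and 3.28 CPM under EHP-101, 0.883, 6.90 and 0.717 under losartan, 4.02, 1.79 and 2.29 with Ang II alone, and 1.34, 0 and 3.59 in controls. Its high libraries in the EHP-101, losartan and control groups were those of Upk3b. Of the 12 other mesothelial genes at a mean of 1 CPM or more, 7 were among the 100 genes highest in r with Upk3b. The median r of the 12 was 0.87, against 0.01 for all 13274 genes ranked. The members and all gene lists used here were chosen with earlier results of these data known. Their shares and correlations are therefore no independent check of the pattern.

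Among all genes outside the marker set, the 10 with the highest r with Upk3b over the 12 libraries were Gpc3 (0.973), Cyp2s1 (0.962), Slc39a8 (0.959), Zfp579 (0.955), ENSMUSG00000109486 (0.953), Magee1 (0.950), Plekha7 (0.947), Nkain4 (0.946), Rxfp1 (0.939) and Tpcn2 (0.936). Gpc3 encodes a cell-surface proteoglycan and had 6.34, 4.26 and 8.84 CPM under EHP-101, 4.51, 13.1 and 4.34 under losartan, 9.91, 8.72 and 10.2 with Ang II alone, and 7.43, 2.91 and 8.43 in controls. Rxfp1, the relaxin receptor, had 1.86, 0.561 and 3.85 CPM under EHP-101, 1.12, 11.5 and 0.295 under losartan, 14.5, 4.69 and 5.96 with Ang II alone, and 6.01, 0.0538 and 10.1 in controls. Both were lowest in control replicate 2, with losartan replicate 2 far above the other losartan libraries.

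Many of the markers of atrial muscle moved with these genes. All 14 atrial markers had enough reads to be tested. Their summed level ranged over 673 to 1325 CPM under EHP-101, 207 to 2351 under losartan, 1794 to 3141 with Ang II alone and 416 to 2126 in controls. Myl7, the atrial myosin light chain, had 77.8, 24.7 and 204 CPM under EHP-101, 40.4, 479 and 3.67 under losartan, 539, 362 and 312 with Ang II alone, and 311, 39.7 and 543 in controls. Its r with Upk3b was 0.82 (permutation p = 0.00153, adjusted 0.00337), its rho 0.90 (permutation p = 0.00017, adjusted 0.000374) and its r within groups 0.83 (exact permutation p = 0.0162, adjusted 0.0297), and r was 0.84 without the 2 farthest libraries. In 7 of the 14 atrial markers the 5 lowest libraries were those of Upk3b, and in the others they were not. Over the 13 at a mean of 1 CPM or more, r ran from 0.14 for Clec3b to 0.89 for Gja5, with a median of 0.80. Bmp10 had 1.02, 0.711 and 0.0422 CPM under losartan, against 507, 340 and 223 with Ang II alone. It was thus not high in losartan replicate 2, the highest library of Upk3b. The median r was 0.70 for 6 adipocyte markers, 0.48 for 9 mural, 0.44 for 10 fibroblast, 0.25 for 8 endothelial, -0.02 for 6 macrophage and -0.40 for 8 cardiomyocyte markers, with the same 5 lowest libraries in 0 genes of each of these lists. The 7 adipocyte markers, 6 of them tested, summed to 16.1 to 52.7 CPM under EHP-101, 5.36 to 96.2 under losartan, 25.9 to 114 with Ang II alone and 4.25 to 28.3 in controls. The fibroblast receptor Pdgfra had an r of 0.46 with Upk3b and a rho of 0.17 (permutation p = 0.123 and 0.605, adjusted 0.15 and 0.666). The part of the atrial and adipocyte markers in the pattern of the mesothelial genes was not tested.

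Between Ang II and control libraries, a contrast that asks what the infusion changed, 0 of the 10 markers passed. The threshold was 0.05 after Benjamini-Hochberg adjustment over all genes in the quasi-likelihood fit of edgeR, and 0.541% of the tested genes passed it. At an unadjusted p under 0.05 there were 2 markers, Aldh1a2 and Tbx18, both higher with Ang II, against 17.6% of all genes in either direction and 9.09% in that one. The Ang II and control libraries did not overlap in 4 of the 10, against 22.6% of all genes. Those were Aldh1a2, Tbx18 and Krt18, with all Ang II libraries above (12.3% of all genes), and Wt1, with all Ang II libraries below (10.3% of all genes). The median log2 fold change of the 10 was 0.66, with 8 positive and 2 negative, against 0 for all genes.

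Aldh1a2 averaged 11.5 ± 1.52 CPM with Ang II and 6.54 ± 0.792 CPM in controls (SD, n = 3 each). Its log2 fold change was 0.81 ± 0.27 (SE, 95% interval 0.23 to 1.40, edgeR adjusted p = 0.192), and it lay between 0.71 and 1.0 in all 21 alternative fits, with adjusted p-values from 0.094 in DESeq2 to 0.6 without Ang II replicate 1. Tbx18 averaged 8.33 ± 1.68 CPM with Ang II and 5.41 ± 1.38 CPM in controls, with a log2 fold change of 0.62 ± 0.24 (interval 0.10 to 1.14, edgeR adjusted p = 0.236), and 0.43 without control replicate 2. Wt1 averaged 5.63 ± 0.457 CPM with Ang II and 6.98 ± 0.577 CPM in controls, with a log2 fold change of -0.31 ± 0.21 (interval -0.77 to 0.15, edgeR adjusted p = 0.445). Fibroblast markers were higher in the same comparison. Of 10 fibroblast markers 3 passed, Postn, Pi16 and Col1a2, all with higher levels in the Ang II group, and the median log2 fold change of the list was 1.05. Postn and Pi16 each kept their call in 7, and Col1a2 in 4, of the 12 fits without 1 library. The summed level of all 10 fibroblast markers was 4767 to 6206 CPM with Ang II and 2525 to 4219 CPM in controls. The part of fibroblasts in the values of Aldh1a2 and Tbx18 was not tested.

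For the genes of high spread the Ang II comparison could show little. Upk3b averaged 12.1 ± 2.32 CPM with Ang II and 6.46 ± 6.36 CPM in controls, and its log2 fold change of 0.89 ± 1.19 had an interval from -1.76 to 3.53 (edgeR adjusted p = 0.713). The log2 fold changes were 0.74 ± 1.10 for Msln, 0.76 ± 1.19 for Lrrn4, 0.57 ± 0.84 for Upk1b, 0.70 ± 0.76 for Krt19 and -0.20 ± 0.76 for Krt8, with adjusted p-values from 0.637 to 0.907. Without control replicate 2, those of Upk3b, Msln, Lrrn4, Upk1b and Krt19 were 0.34, 0.19, 0.21, 0.07 and 0.22, and without control replicate 3 that of Upk3b was 1.89. With an atrial marker score as a covariate, those of Upk3b, Msln, Lrrn4, Upk1b and Krt19 were 0.06, 0.04, -0.09, -0.18 and 0.10. The score was the mean, over the 14 atrial markers, of log2 CPM centred on each gene's mean. It was -1.49 in control replicate 2, 0.9 and 0.93 in the other controls and 0.85 to 1.59 with Ang II alone. Among its genes was Nppa, with 399 to 628 CPM with Ang II alone and 158 to 396 in controls. How far the infusion itself moved the score was not tested, so that these values do not separate atrial content from the infusion. Krt18 had a log2 fold change of 0.41 ± 0.34 (interval -0.31 to 1.14).

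**Figure D4:**
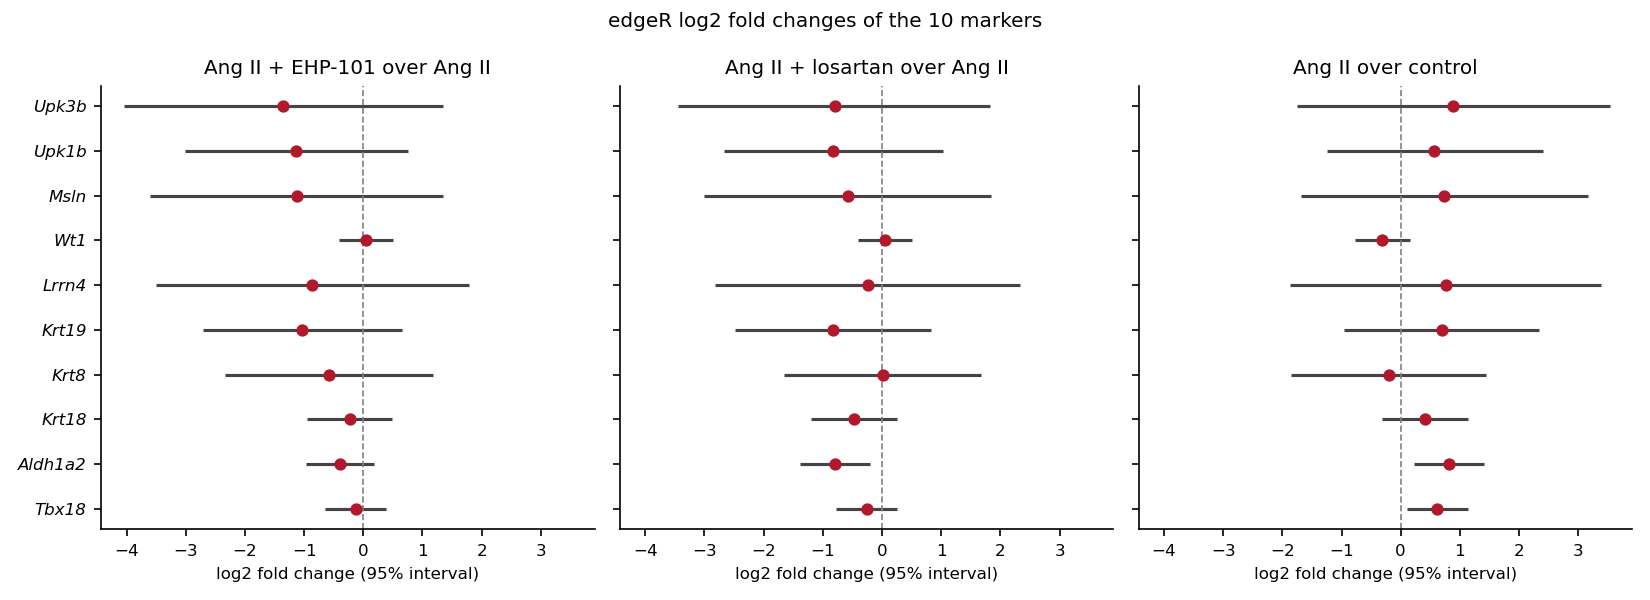
Log2 fold changes of the 10 genes from edgeR (points) with approximate 95% intervals derived from its F values (lines), n = 3 libraries per group. The panels are Ang II with EHP-101 over Ang II, Ang II with losartan over Ang II, and Ang II over control. The intervals of Upk3b, Msln and Lrrn4 span about 5 log2 units, those of Wt1 0.92, and the lines that do not reach 0 are those of Aldh1a2 and Tbx18 for Ang II over control and of Aldh1a2 under losartan, none of which passed after adjustment over all genes.

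Between hearts given EHP-101 and those with Ang II alone, 0 of the 10 markers passed the adjusted threshold, as did 0% of all genes in edgeR, and DESeq2 called 61 genes with 0 of the markers among them. At an unadjusted p under 0.05 there were 0 markers, against 7.22% of all genes, and the groups overlapped in all 10, where 16.8% of all genes did not overlap. The median log2 fold change of the markers was -0.72, with 9 of 10 negative. Upk3b averaged 4.73 ± 5.25 CPM under EHP-101 and 12.1 ± 2.32 CPM with Ang II alone, with a log2 fold change of -1.35 ± 1.22 (interval -4.05 to 1.35, edgeR adjusted p = 0.934), which was -2.77 without EHP-101 replicate 3. Aldh1a2 averaged 8.74 ± 3.52 CPM under EHP-101 and 11.5 ± 1.52 CPM with Ang II alone (log2 fold change -0.40 ± 0.27, interval -0.97 to 0.18, edgeR adjusted p = 0.877). Wt1 had a log2 fold change of 0.05 ± 0.21 (interval -0.41 to 0.51), the narrowest of the markers. The atrial markers were also lower in 14 of 14 by log2 fold change, with a median of -1.25 and 0 passing. With the atrial score as a covariate the log2 fold change of Upk3b was 0.63 (edgeR adjusted p = 0.825). That score was -1.12 to 0.4 under EHP-101 and 0.85 to 1.59 with Ang II alone. The groups did not overlap in it, so that this value is extrapolated.

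Between hearts given losartan and those with Ang II alone, 0 of the 10 markers passed, as did 0% of all genes in edgeR, and DESeq2 called 108 genes with 0 markers among them. At an unadjusted p under 0.05 there was 1 marker, Aldh1a2, lower under losartan, against 8.41% of all genes in either direction and 6.14% in that one. It was also the 1 marker whose groups did not overlap, against 19.7% of all genes in either direction and 10.5% in that one. Aldh1a2 averaged 6.62 ± 1.77 CPM under losartan and 11.5 ± 1.52 CPM with Ang II alone, a log2 fold change of -0.79 ± 0.27 (interval -1.38 to -0.21, edgeR adjusted p = 0.41, and 0.175 to 1 over the alternatives). Tbx18 averaged 6.94 ± 1.19 CPM under losartan and 8.33 ± 1.68 CPM with Ang II alone (log2 fold change -0.26 ± 0.24, interval -0.78 to 0.25, edgeR adjusted p = 0.842). Upk3b averaged 6.89 ± 9.76 CPM under losartan and 12.1 ± 2.32 CPM with Ang II alone, and its log2 fold change of -0.80 ± 1.19 was -3.24 without losartan replicate 2, -0.29 without replicate 1 and -0.34 without replicate 3. With the atrial score as a covariate it was 1.43 (edgeR adjusted p = 0.51), while that of Aldh1a2 was -0.93 (edgeR adjusted p = 0.49). That score was -2.19 to 0.6 under losartan and 0.85 to 1.59 with Ang II alone. The groups did not overlap in it, so that these values are extrapolated. The summed fibroblast level was 3147 to 4237 CPM under losartan and 4767 to 6206 CPM with Ang II alone, with 10 of 10 fibroblast markers at a negative log2 fold change and 0 passing. The comparisons of losartan and of EHP-101 share the Ang II libraries, as does that of Ang II with control.

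Between EHP-101 and losartan directly, 0 of the 10 markers passed, as did 0% of all genes in edgeR, 0 markers had an unadjusted p under 0.05 (6.04% of all genes), and all 10 overlapped, where 13.3% of all genes did not. The mean of Aldh1a2 was 8.74 ± 3.52 CPM under EHP-101, against 6.62 ± 1.77 CPM under losartan, and the log2 fold change was 0.40 ± 0.27 (interval -0.19 to 0.98, edgeR adjusted p = 0.918). In the test of any difference among the 4 groups 0 markers passed (0.189% of all genes did), and Aldh1a2 had the smallest p of the 10, at 0.0274 (edgeR adjusted p = 0.332).

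Related gene lists were read beside the members in the same fits. Of 14 retinoic acid pathway genes tested, 1 rose with Ang II and 0 fell. It was Crabp2, which carries retinoic acid inside cells, with 16, 8 and 34 reads in the Ang II libraries and 0, 1 and 1 in the control libraries. Scaled to library size, the summed reads gave a ratio of 25 with a counting interval of 6.62 to 211, and the fitted log2 fold change was 4.40 ± 0.86 (edgeR adjusted p = 0.0478). The call was lost in 9 of the 12 fits that each left out 1 library, with the highest edgeR adjusted p, 0.22, without Ang II replicate 3. Under EHP-101 it had 4, 4 and 12 reads and under losartan 5, 5 and 2 (log2 fold change over Ang II alone -1.32 ± 0.58 and -2.06 ± 0.63, edgeR adjusted p = 0.66 and 0.35). For Ang II over control Cyp26b1, which degrades retinoic acid, had a log2 fold change of 1.25 ± 0.48 and the receptor Rxra one of -0.31 ± 0.12 (edgeR adjusted p = 0.236 and 0.23).

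Of 15 genes of epicardial development and of the transition to mesenchyme, 0 passed in any comparison in edgeR with all libraries. For Ang II over control the smallest p-values were those of the matricellular gene Thbs1 (log2 fold change 1.81 ± 0.40, edgeR adjusted p = 0.0718), the zinc finger gene Bnc2 (1.61 ± 0.46, 0.147), the guidance factor Sema3d (1.13 ± 0.44, 0.234) and the T-box gene Tbx20 (0.51 ± 0.21, 0.251), and the median of the list was 0.38. Bnc2 passed in DESeq2 (adjusted p = 0.0317), and Thbs1 passed in DESeq2 and without control replicate 1 (edgeR adjusted p = 0.0464). Under losartan Thbs1 had a log2 fold change over Ang II alone of -1.29 ± 0.39 and Tcf21, a factor of epicardial and fibroblast cells, one of -0.57 ± 0.24 (edgeR adjusted p = 0.35 and 0.538). Under EHP-101 Hand2 had one of 0.48 ± 0.21 (edgeR adjusted p = 0.664). Of 17 other mesothelial genes 0 passed in any comparison, and their median log2 fold changes were 0.68 for Ang II over control, -0.70 for EHP-101 over Ang II alone and -0.22 for losartan over Ang II alone. Dmkn, a secreted epithelial protein, had 0, 1 and 2 reads under EHP-101, 0, 10 and 0 under losartan, 16, 10 and 21 with Ang II alone and 9, 1 and 7 in controls (log2 fold change of EHP-101 over Ang II alone -3.62 ± 1.08, edgeR adjusted p = 0.416).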

How the data were processed

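RNA of 12 mouse heart samples was sequenced after a poly(A) TruSeq preparation that keeps no strand, per the labels' protocols. The deposited values are raw counts per gene, made by the authors with fastp 0.20.0, HISAT2 2.1.0 and featureCounts 2.0.0 on GRCm38, per the submitters' processing notes, which also name edgeR 3.30.0. Gene symbols came from a reference list of gene names and covered 47224 of 47729 identifiers, and positions and exon lengths came from GENCODE M21. Genes were filtered with edgeR's filterByExpr, scaled by TMM and fitted over all 12 libraries with edgeR 4.0.16 (R 4.3.3), using the quasi-likelihood test with Benjamini-Hochberg adjustment over the 15336 genes kept and no covariate. The quasi-likelihood test gives no SE. Each SE was derived as the absolute log2 fold change divided by the square root of its F value. The 95% intervals used this SE with a t quantile, so that both are approximate. The fit was tested on simulated counts. Correlations with Upk3b used log2 CPM and permutation tests in SciPy 1.17.1. The alternatives used DESeq2 1.42.0, limma 3.58.1, other scalings and filters, the replicate block, an atrial score and each library left out. Named genes were the 10 members, list genes that passed or otherwise up to 4 with the smallest p in the comparison described, and the 10 genes most like Upk3b; 1 list gene that the rule names is not reported here. Alternatives for the list genes were added after seeing the data. The members and the gene lists were chosen with earlier results of these data known. Within each group, no pair of libraries was close enough to be 1 library deposited more than once, and pairs across groups were not compared. Counting intervals and floors cover counting error only.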

Additional observations from a re-analysis of the deposited data

How the results depend on the processing

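None of the 10 markers passed in any of the 4 pairwise comparisons under those of the 21 alternatives that tested them. The lowest adjusted p was 0.094, for Aldh1a2 in Ang II over control in DESeq2. With the filter of a mean of at least 5 CPM, only Upk3b, Wt1, Aldh1a2 and Tbx18 were tested among the markers. Of 813 log2 fold changes of the markers, 763 kept their direction and 50 reversed, and the cause was not tested. With the atrial score as a covariate, Ang II over control was -0.18 for Upk1b and -0.09 for Lrrn4. With that score, EHP-101 over Ang II was 0.63 for Upk3b, 0.58 for Upk1b, 0.91 for Msln, 1.13 for Lrrn4, 0.28 for Krt19, 0.54 for Krt8, 0.13 for Krt18 and 0.24 for Tbx18. Losartan over Ang II was then 1.43 for Upk3b, 1.18 for Upk1b, 1.47 for Msln, 2.17 for Lrrn4, 0.79 for Krt19 and 0.23 for Tbx18. In both of these comparisons the score did not overlap between the groups, so that the values are extrapolated, and none passed. With library size alone, Wt1 was -0.09 for EHP-101 over Ang II, -0.07 for losartan over Ang II and -0.02 for EHP-101 over losartan, and Krt8 was -0.11 for losartan over Ang II. Under that scaling the median over all genes shifted by 0.17 for Ang II over control, -0.15 for EHP-101 over Ang II and -0.12 for losartan over Ang II. In limma-voom Krt8 was -0.74 for losartan over Ang II and 0.03 for EHP-101 over losartan, where Msln was 0.2.

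Without 1 library at a time, Krt8 lay between -0.75 and 0.11 for Ang II over control. For EHP-101 over Ang II, Wt1 lay between -0.14 and 0.17 and Tbx18 between -0.29 and 0.04. For losartan over Ang II, Wt1 lay between -0.12 and 0.25, Lrrn4 between -2.32 and 0.25 and Krt8 between -1.53 and 0.56. For EHP-101 over losartan the ranges were -1.97 to 1.89 for Upk3b, -1.58 to 1.18 for Upk1b, -1.4 to 1.77 for Msln, -0.19 to 0.17 for Wt1, -2.56 to 1.47 for Lrrn4, -1.21 to 1.01 for Krt19, -1.14 to 0.95 for Krt8, -0.03 to 0.8 for Krt18 and -0.02 to 0.3 for Tbx18.

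Counts of all genes called moved more. For Ang II over control, 83 genes were called, against 513 in DESeq2, 52 in limma-voom, 167 with no filter, 20 with only the 2 groups fitted, 53 with the atrial score and 8 to 151 without 1 library. For EHP-101 over Ang II the 0 became 61, 10 and 3 in DESeq2, with no filter and with only the 2 groups. For losartan over Ang II it became 108, 30 and 1, and 0 to 3 without 1 library. For EHP-101 over losartan it became 25 and 3 in DESeq2 and with no filter, and 0 to 2 without 1 library. The test over 4 groups called 29, against 14 with library size alone, 566 in DESeq2, 189 with no filter, 51 with the atrial score and 3 to 31 without 1 library. With the replicate block, it called 9 and Ang II over control 57. Deviations of libraries that share a number correlated at -0.33 to 0.33. Libraries of different numbers were not compared, so that this range cannot exclude pairing. The numbers were not taken to pair libraries.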
